A study of Brassica oleracea with 12 samples.

Results

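Transcripts of the Rubisco small subunit and of 3 further Calvin cycle enzymes were followed in leaves of an ornamental kale that turn from red to red with a green margin. Members were the entries of the deposited expression table named GAPB, or described as ribulose bisphosphate carboxylase, phosphoribulokinase or sedoheptulose phosphatase, with at least 1 FPKM (fragments per kilobase of transcript and per unit of sequencing depth) in at least 3 libraries. Of 45714 entries, 12 met the name rule and 10 also passed the FPKM filter. The 10 are 3 Rubisco small subunit entries, GAPB, SBPASE, 3 phosphoribulokinase entries (Bo5g048540, Bo5g091640 and PRK) and 2 entries described as "Phosphoribulokinase / Uridine kinase family" (Bo2g080810 and Bo3g138420). The 2 that failed the filter, Bo2g055370 and the merged entry Bo2g055400;Bo2g055360, are also small subunit entries. They averaged 0.608 and 0.410 FPKM over the 12 libraries and reached 1 FPKM in 2 libraries each. The least abundant member inside the filter, Bo3g138420, averaged 2.80 FPKM and was at 1 FPKM or more in all 12.

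Poly(A) RNA of 12 leaf libraries of cultivar JC007-2B (Brassica oleracea var. acephala) was sequenced in 4 groups of 3, with no treatment or second genotype. S1 is the whole red leaf with the veins removed, and S2 is the whole leaf, also with the veins removed, at a stage when its margin is green. At S3 the leaf was divided, with the red center as S3_C and the green margin as S3_S. Separate plants are not stated for the 3 libraries of each group, so p-values measure only the spread between these samples, which may be technical.

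The Calvin cycle is the chloroplast pathway that fixes carbon dioxide into sugar phosphates. Rubisco, built of a chloroplast-encoded large subunit and a nuclear-encoded small subunit, adds carbon dioxide to ribulose bisphosphate. GAPB, a subunit of the chloroplast glyceraldehyde phosphate dehydrogenase, then takes part in the reduction step, and sedoheptulose bisphosphatase (SBPASE) and phosphoribulokinase (PRK) regenerate the acceptor. Small subunit transcripts are among the most abundant of green leaf cells. Some enzymes of the cycle, SBPASE and PRK among them, are known to be switched on in the light through thioredoxin.

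In these leaves 7 of the 8 enzyme entries changed level together from library to library, by factors of 8.63 to 30.8 between the lowest and the highest library. Of the squared deviations of their log2 levels, 63.8 to 93.4% lay within the groups, beside a median of 65.1% over all tested genes. The remaining enzyme entry, the small subunit Bo6g059930, varied by a factor of 38.2 and followed the others less closely. No member passed the test in any of the 4 comparisons of all 12 libraries. For 7 of the 8 enzyme entries, mean levels were higher in S2 and in the red center than in S1, and lower in the green margin than in the red center. The small subunit entry Bo6g059930 had nearly the same mean in S2 and S1 (10.6 and 10.4 FPKM). Its mean was lower in the red center than in S1, and higher in the margin than in the center. The ranges of the groups overlapped for each of the 8 enzyme entries in each comparison. Over all tested genes the groups stood clear of each other, higher and lower in the first group, in 4.71% and 6.7% of genes for S2 against S1, 5.28% and 10.1% for S3_C against S1, 5.74% and 3.81% for S3_S against S1, and 11.9% and 4.85% for S3_S against S3_C. S1 replicate 1 had a profile closer to S2 than to the rest of S1. Without it, GAPB and the phosphoribulokinase entry Bo5g091640 passed the threshold in S2 and in the red center against S1. In that setting 4.69% of all tested genes were called higher and 10.9% lower in S2, and 6.41% and 16.6% in the red center.

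Only S1 replicates 2 and 3 had their nearest library in their own group, which touches each result given here. S2 replicates 1 and 2 and S3_C replicate 3 were nearest to S1 replicate 1. S2 replicate 3 and S3_C replicate 1 were nearest to each other. Over the 27272 tested genes, S1 replicate 1 had its highest correlation with S2 replicate 2 (r = 0.941) and r = 0.749 and 0.761 with the other S1 libraries. For S3_S replicate 3 the nearest library was S1 replicate 3 (r = 0.912), ahead of its own group (r = 0.8525 and 0.8547). These correlations are across genes, which are not independent replicates. The leaf label was checked with light harvesting antenna genes as mesophyll markers. Of 18 matched entries 16 were tested, and their summed level was 1225 to 5794 FPKM in S1, 3859 to 6390.0 in S2, 3141 to 7882 in S3_C and 3082 to 5229 in S3_S. Of 6 vascular markers 1 was matched, the xylem peptidase XCP1, at 5.67 and 2.87 FPKM in S1 replicates 2 and 3, 7.08 in S3_S replicate 3 and 0.254 to 0.903 in the other 9 libraries. None of 4 epidermal markers was matched, and the matched guard cell marker was below the filter.

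The most abundant member was the merged entry Bo4g137150;Bo4g137140;Bo4g137200, which lists 3 annotated small subunit genes. It measured 974, 168 and 312 FPKM in S1 replicates 1, 2 and 3, 487, 1152.5 and 1562 in S2, 2050.4, 700.25 and 319 in S3_C, and 576, 247 and 1109 in S3_S. High and low libraries occurred in every group, and the lowest and the highest of all, S1 replicate 2 and S3_C replicate 1, differed by a factor of 12.2. The group means were 485 ± 429.8 FPKM in S1, 1067 ± 543 in S2, 1023 ± 909.6 in S3_C and 644 ± 435 in S3_S (SD, n = 3), so each mean lay within about 1 SD of the neighbouring means.

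Bo4g144000, the next small subunit entry, measured 653, 113 and 204 FPKM in S1, 172, 543 and 799 in S2, 1199.8, 247 and 169 in S3_C, and 414, 100.5 and 662 in S3_S. Its group means ran from 323 ± 289 in S1 to 539 ± 574 in S3_C, with 392 ± 281 in S3_S and 505 ± 315 in S2. It followed the merged entry, with the same highest library and its lowest value in S3_S replicate 2. Of the squared deviations of its log2 values, 93.4% lay within groups, against a median of 65.1% over all tested genes.

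The small subunit entry Bo6g059930 was scarcer and varied otherwise. It measured 15.5, 2.26 and 13.4 FPKM in S1, 5.63, 8.36 and 17.7 in S2, 15.2, 5.11 and 1.15 in S3_C, and 2.73, 1.41 and 43.8 in S3_S. Its highest value was in S3_S replicate 3, the library that resembled S1 replicate 3, and this single value set the S3_S mean of 16.0 ± 24.1. Both abundant small subunit entries were highest in S3_C replicate 1. Reads that fit several near-identical small subunit copies may have been split among entries in the authors' counting, so the level of each copy is uncertain. The sum of the 3 entries, which is less open to such splitting, ran from 284 to 3265 FPKM over the libraries.

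**Figure D1:**
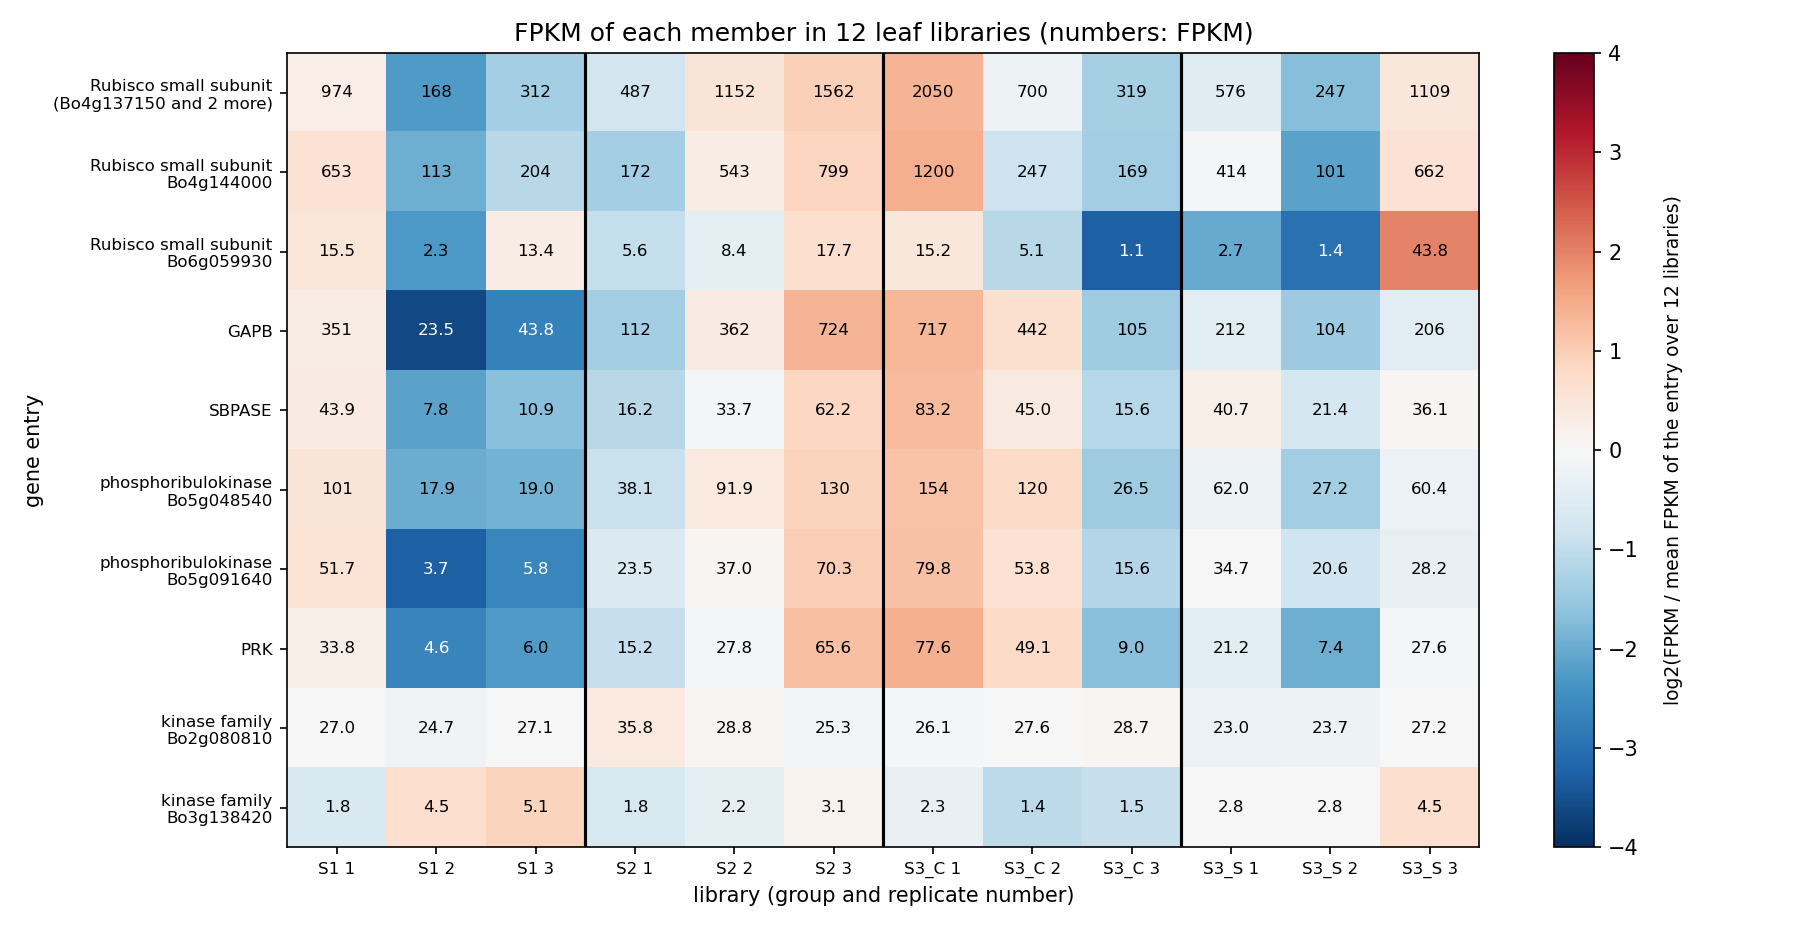
FPKM of the 10 members (rows) in the 12 libraries (columns, split by group), with the FPKM printed in each cell and the color giving the log2 ratio to the mean of the entry over the 12 libraries. S3_C replicate 1 and S2 replicate 3 are red for the 8 enzymes of the cycle and S1 replicates 2 and 3 are blue for 7 of them (Bo6g059930 measured 13.4 FPKM in S1 replicate 3), while the kinase family entry Bo2g080810 stays between 23.0 and 35.8 FPKM.

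GAPB, the marker of the reduction step, measured 351, 23.5 and 43.8 FPKM in S1, 112, 362 and 724 in S2, 717, 442 and 105 in S3_C, and 212, 104 and 206 in S3_S. In S1, replicate 1 stood apart from the other pair by a factor of 14.9 over the lowest. The group means were 422 ± 307 in S3_C, 399 ± 308 in S2, 174 ± 61.0 in S3_S and 139 ± 183 in S1, and neighbours in this order overlapped. The factor of 30.8 between its lowest and highest library was the largest among GAPB, SBPASE, the phosphoribulokinases and the 2 abundant small subunit entries.

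SBPASE, which removes a phosphate from sedoheptulose bisphosphate in the regeneration of the acceptor, measured 43.9, 7.82 and 10.9 FPKM in S1, 16.2, 33.7 and 62.2 in S2, 83.2, 45.0 and 15.6 in S3_C, and 40.7, 21.4 and 36.1 in S3_S. Its means were 20.9 ± 20.0, 37.4 ± 23.2, 47.9 ± 33.9 and 32.8 ± 10.1 in the same order. As for GAPB, the S1 range covered the S3_S range whole.

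Phosphoribulokinase, which makes the ribulose bisphosphate that Rubisco uses, was found as 3 entries. Bo5g048540 measured 101.2, 17.9 and 19.0 FPKM in S1, 38.1, 91.9 and 129.6 in S2, 154, 119.6 and 26.5 in S3_C, and 62.0, 27.2 and 60.4 in S3_S. Bo5g091640 measured 51.7, 3.67 and 5.77 in S1, 23.5, 37.0 and 70.3 in S2, 79.8, 53.8 and 15.6 in S3_C, and 34.7, 20.6 and 28.2 in S3_S. The entry named PRK measured 33.8, 4.61 and 6.02 in S1, 15.2, 27.8 and 65.6 in S2, 77.6, 49.1 and 9.04 in S3_C, and 21.2, 7.38 and 27.6 in S3_S. All of them were lowest in S1 replicate 2 and highest in S3_C replicate 1. Of their summed FPKM, Bo5g048540 made up 54.2 ± 5.93%, Bo5g091640 26.0 ± 5.98% and PRK 19.8 ± 3.46% (SD over 12 libraries).

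The 2 kinase family entries entered through the shared word in their description and are not enzymes of the cycle. Unlike the phosphoribulokinases, neither carries the ontology term for phosphoribulokinase activity, and the Arabidopsis genes assigned to them, AT1G73980 and AT1G26190, encode triphosphate tunnel metalloenzymes. Bo2g080810 lay between 23.0 and 35.8 FPKM in all 12 libraries, with a within-group SD of 0.15 on the log2 scale, lower than in all but 1.80% of tested genes. Bo3g138420 measured 1.83, 4.51 and 5.15 FPKM in S1, 1.79, 2.16 and 3.06 in S2, 2.26, 1.36 and 1.48 in S3_C, and 2.77, 2.77 and 4.50 in S3_S. In S3 its center and margin values did not overlap, and the margin was higher, as in 11.9% of all tested genes. The limma test of that difference gave a log2 fold change of 0.68 (SE 0.32, adjusted p = 0.476).

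For the comparison of S2 with S1, which sets the leaf with a green margin against the earlier red leaf, the 8 enzyme entries all had positive log2 fold changes of FPKM + 1, with a median of 1.28. The median over all tested genes was -0.09, with 42.9% of genes above 0. Of the 8 entries 7 varied together from library to library (median r = 0.944). Counts of entries in 1 direction, here and below, are therefore not counts of independent results. GAPB had the largest difference, 2.09 (SE 1.03, 95% interval -0.19 to 4.36, adjusted p = 0.403), followed by Bo5g091640 with 1.77 (SE 0.85, adjusted p = 0.403). The merged small subunit entry had 1.36 (SE 0.88, adjusted p = 0.468) and SBPASE 1.0004 (SE 0.72, adjusted p = 0.509). Limma called 0 of 10 members, and 0.00733% of all tested genes, at an adjusted p under 0.05. None of the members had an unadjusted p under 0.05, against 3.7% of all tested genes higher and 8.39% lower in S2.

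In the red center against S1, 7 of the 8 enzyme entries had positive differences. Their median log2 difference was 1.25, that of all tested genes -0.18. GAPB had 2.15 (SE 1.03, 95% interval -0.12 to 4.42, adjusted p = 0.243), Bo5g091640 had 1.82 (SE 0.85, adjusted p = 0.234) and PRK 1.62 (SE 0.90, adjusted p = 0.292). The merged small subunit entry had 1.053 (SE 0.88, adjusted p = 0.475), and Bo6g059930 was the exception at -0.62 (SE 1.09). Limma again called 0 of 10 members, beside 0.00733% of all tested genes, and the lowest unadjusted p among the members, 0.0348, belonged to the kinase family entry Bo3g138420 (log2 fold change -0.78, adjusted p = 0.217). Of all tested genes, 6.12% were higher and 15.8% lower at this unadjusted level of 0.05. Both comparisons use the same S1 libraries, so their values for the members are not independent.

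For the green margin against S1, 7 of the 8 enzyme entries had positive differences. Their median was 0.60, beside -0.02 over all tested genes, and the largest difference was that of Bo5g091640, 1.25 (SE 0.85, 95% interval -0.62 to 3.12, adjusted p = 0.833). GAPB had 1.196 (adjusted p = 0.854). Limma called 0 of 10 members and 0.00733% of all tested genes, and no member had an unadjusted p under 0.05, against 2.9% of tested genes higher and 2.79% lower.

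Between the margin and the center of the same stage, 7 of the 8 enzyme entries had lower mean log2 levels in the green margin, with a median of -0.54. The median over all tested genes was 0.18 and became 0.01 when the libraries were rescaled by median-of-ratios factors, which turned the direction of no member. PRK had -0.97 (SE 0.90, 95% interval -2.95 to 1.01, adjusted p = 0.638), GAPB -0.95 (SE 1.03, adjusted p = 0.683) and the merged small subunit entry -0.51 (SE 0.88, adjusted p = 0.802). Limma called 0 of 10 members and 0.0% of all tested genes, and at an unadjusted p under 0.05 no member, against 7.47% of genes higher and 2.89% lower. The 95% interval for GAPB ran from -3.23 to 1.32.

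The same-numbered center and margin libraries split in direction. Whether equal numbers mark the same leaves is not given by the labels. In replicate 1 all 8 enzyme entries were lower in the margin, at 0.180 to 0.489 of the center value, and in replicate 2 all 8 were lower again, at 0.1504 to 0.476. In replicate 3 all 8 were higher in the margin, by a factor of 1.81 for Bo5g091640 up to 38.2 for Bo6g059930. For GAPB the ratios were 0.296, 0.235 and 1.97, and for the merged small subunit entry 0.281, 0.352 and 3.47. Replicate 3 holds both a low center library and the margin library that resembled S1. Without S3_S replicate 3 and S1 replicate 1, a setting chosen after the values were seen, the margin minus center difference was -1.11 for GAPB (adjusted p = 0.631) and -1.03 for the merged entry (adjusted p = 0.614).

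**Figure D2:**
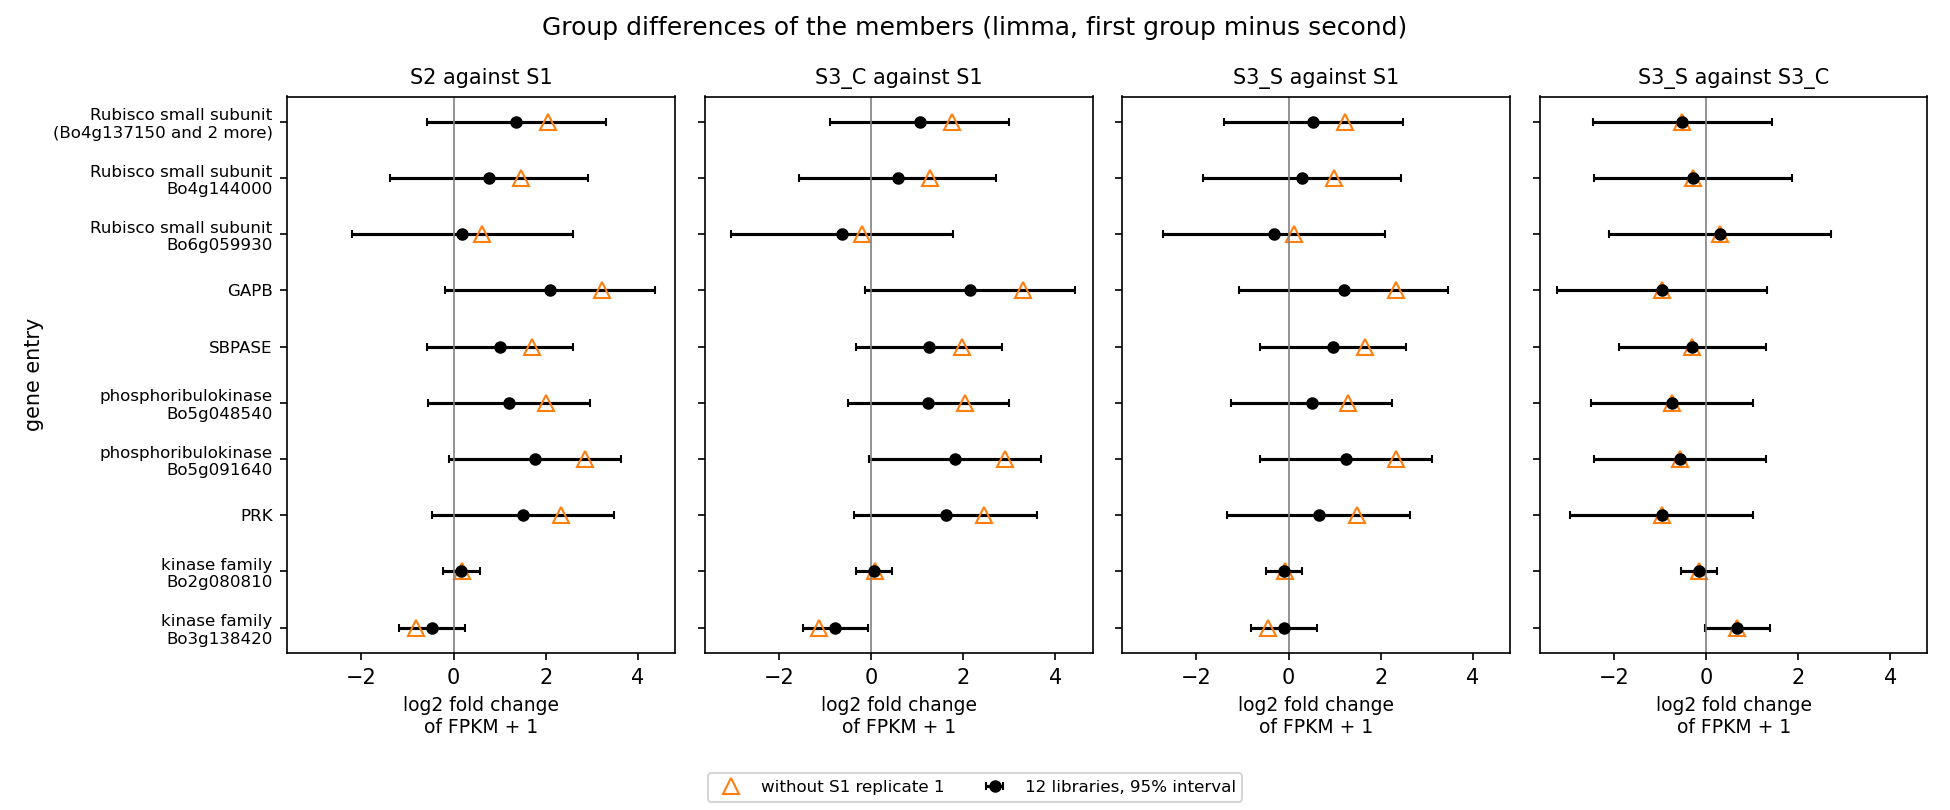
Log2 fold changes of FPKM + 1 for the 10 members in 4 comparisons (first group minus second), with 95% intervals from limma on 12 libraries (points and bars) and the value without S1 replicate 1 (open triangles). The GAPB interval crosses 0 in S2 against S1 (-0.19 to 4.36), and its triangle stands further right, at 3.22.

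S1 replicate 1 decided which enzymes were called in the comparisons with S1. Without it, limma called GAPB higher in S2, with a log2 fold change of 3.22 (SE 0.89, adjusted p = 0.0366), and Bo5g091640 higher, with 2.85 (SE 0.63, adjusted p = 0.0174). These 2 of 10 members stand beside 4.69% of all tested genes called higher and 10.9% lower. In the red center against S1 the same entries were called, GAPB at 3.29 (adjusted p = 0.0264) and Bo5g091640 at 2.90 (adjusted p = 0.0129), beside 6.41% of tested genes higher. Bo3g138420 was called lower there (-1.12, adjusted p = 0.0195), beside 16.6% of tested genes lower. The small subunit entries, SBPASE, Bo5g048540 and PRK had positive differences in S2 against S1 in this setting but were not called, with adjusted p from 0.0912 for Bo5g048540 to 0.769 for Bo6g059930. In the margin against S1, 0 of 10 members were called (0.363% of genes higher, 1.03% lower), and between margin and center 0 of 10 (0.0% in each direction). Leaving out S3_S replicate 3 as well kept the same calls: GAPB and Bo5g091640 in S2 against S1 (5.63% of genes higher, 13.3% lower) and these 2 with Bo3g138420 in S3_C against S1 (7.08% higher, 18.0% lower), with 0 of 10 members in S3_S against S1 (3.35% higher, 7.94% lower) and between margin and center.

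Some markers of other cells were high in S1 replicates 2 and 3 and S3_S replicate 3, and others were not. For 5 genes of dividing cells, 5 entries were matched and 4 tested, and the summed level was 23.8 to 50.3 FPKM in S1, 11.7 to 28.3 in S2, 19.9 to 28.6 in S3_C and 19.3 to 32.5 in S3_S, with none at 0 in all libraries. PCNA1, the replication clamp, measured 0.164, 9.10 and 12.2 FPKM in S1 replicates 1, 2 and 3 and 5.375 in S3_S replicate 3, and 0.0992 to 0.759 in the other 8 libraries. CDC2B, a mitotic kinase, measured 0.164, 6.52 and 11.1 in S1 and 3.04 in S3_S replicate 3, and CDKB2, of the same kinase family, 0.6599, 5.28 and 7.58 in S1 and 2.74 in S3_S replicate 3. CYC1, a mitotic cyclin that makes up most of the sum, did not follow them, with 22.8, 14.5 and 19.5 FPKM in S1 and 10.7 to 27.85 elsewhere. XCP1, given above, was high in the same 3 libraries. The mesophyll sums of replicates 1, 2 and 3 were 5794, 1225 and 1324 FPKM in S1 and 5229, 3082 and 3199 in S3_S. The part of any of these cell types in the enzyme differences was not tested, and in bulk leaf RNA fewer cells of a type and less RNA per cell cannot be told apart.

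A common profile was seen in 7 entries, GAPB, SBPASE, the 3 phosphoribulokinases and the 2 abundant small subunit entries. The 21 pairs among these 7 had Pearson r of 0.753 to 0.985 on the log2 scale over 12 libraries (median 0.944). With group means removed, r was 0.789 to 0.988 (median 0.940), so the shared variation was between libraries of the same group. The closest pair overall was Bo5g048540 and PRK (r = 0.985), and the closest to GAPB was Bo5g091640 (r = 0.981). The loosest was Bo4g144000 with Bo5g091640 (r = 0.753). All of these values share the same libraries and the same normalization to library totals, and they describe the profiles without a test.

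The remaining members stood off from this group. Bo6g059930 correlated with the 7 entries at r = 0.389 to 0.756 (median 0.511), most with the other small subunit entries. The 2 kinase family entries had r of -0.559 to 0.08 with the 7 (median -0.14), and -0.40 with each other. Within-group SDs of the 8 enzyme entries were 1.01 to 1.55 on the log2 scale, at the 91.7th to 97.9th percentile of tested genes, whose median was 0.44. For Bo3g138420 the SD was 0.39.

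By rank, S3_C replicate 1 and S2 replicate 3 were among the 3 highest libraries for 7 of the 7 entries. S1 replicate 2 was among the 3 lowest for 7 of 7 and S1 replicate 3 for 6 of 7, while S3_C replicate 3 and S3_S replicate 2 were among the 3 lowest for 4 each. S1 replicate 1 held ranks 8 to 9 of 12, counted from the lowest. The 8 enzyme entries together took up 0.0753% of all FPKM in S1 replicate 2 and 1.03% in S3_C replicate 1.

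**Figure D3:**
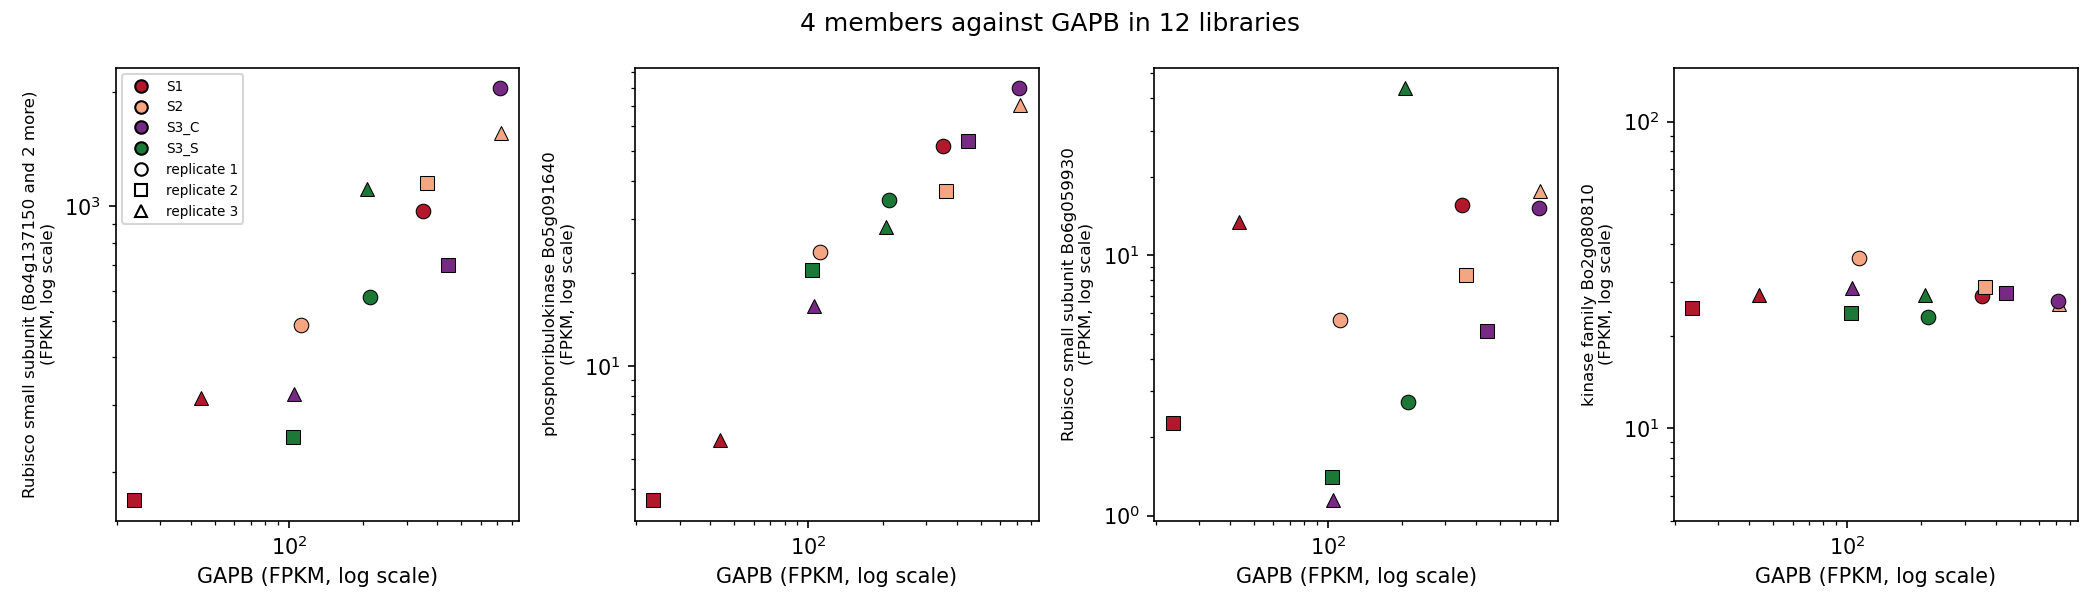
FPKM of 4 members against GAPB in the 12 libraries on log axes, with the color giving the group and the symbol the replicate number. The merged small subunit entry and the phosphoribulokinase Bo5g091640 rise along GAPB (r = 0.918 and 0.981), Bo6g059930 scatters (r = 0.458) and the kinase family entry Bo2g080810 is level (r = -0.01).

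The balance between the enzymes shifted in some libraries. Summed small subunit FPKM was 12.1 times GAPB in S1 replicates 2 and 3 and 8.79 times in S3_S replicate 3, and 2.15 to 5.96 times in the other 9. Against the summed phosphoribulokinases the ratio was 17.2 in S1 replicate 3, 15.6 in S3_S replicate 3, and 4.28 to 10.9 in the other 10. GAPB was 3.003 and 3.9999 times SBPASE in S1 replicates 2 and 3 and 7.995 times in S1 replicate 1, with 4.84 to 11.6 in the rest. The libraries with the highest small subunit to GAPB ratios are those with the highest PCNA1 levels, and the relation was not tested. CYC1, the most abundant marker of dividing cells, was not highest there. It measured 14.5 and 19.5 FPKM in S1 replicates 2 and 3 and 21.3 in S3_S replicate 3, beside 27.8 in S3_C replicate 2.

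The division of the small subunit level among its entries was also compared, a measure added after the values were seen, and no difference between groups passed a test. The merged entry held 59.3, 59.3 and 59.0% of the small subunit FPKM in the 3 S1 libraries, 73.2, 67.6 and 65.7% in S2, 62.8, 73.5 and 65.2% in S3_C, and 58.0, 70.8 and 61.1% in S3_S. The S1 libraries lay within 0.18 percentage points SD (59.2 ± 0.18%) although their summed level spanned 284 to 1643 FPKM. Bo4g144000 took nearly all of the remainder, 39.4 ± 0.78% in S1 and 30.5 ± 4.03% in S2.

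All S2 and S3_C libraries lay above all S1 libraries in this share. The mean difference was 9.67 percentage points for S2 and 8.01 for S3_C, each with p = 0.1 in a two-sided exact permutation test, the smallest p that 3 against 3 can give (0.2 after Benjamini-Hochberg adjustment over 4 comparisons). Leaving out each library in turn gave 7.48 to 11.3 points for S2. For S3_C it gave 4.85 to 10.2 points, the lowest without S3_C replicate 2. The margin overlapped S1 (difference 4.12 points, exact permutation p = 0.4; 0.394 points without S3_S replicate 2) and the center (-3.89 points, exact permutation p = 0.5; -7.61 to -0.722 with a library left out). Within the numbered S3 pairs the margin was lower than the center in 3 of 3, with differences of -4.77, -2.75 and -4.14 points for replicates 1, 2 and 3 (mean -3.89 ± 1.03, SD, n = 3 pairs; two-sided exact paired permutation p = 0.25, the smallest that 3 pairs can give). Neither permutation test can reach 0.05 at this size, and the share also depends on how reads were divided among near-identical copies. The pairing itself was inferred from these data and is not given by the labels.

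**Figure D4:**
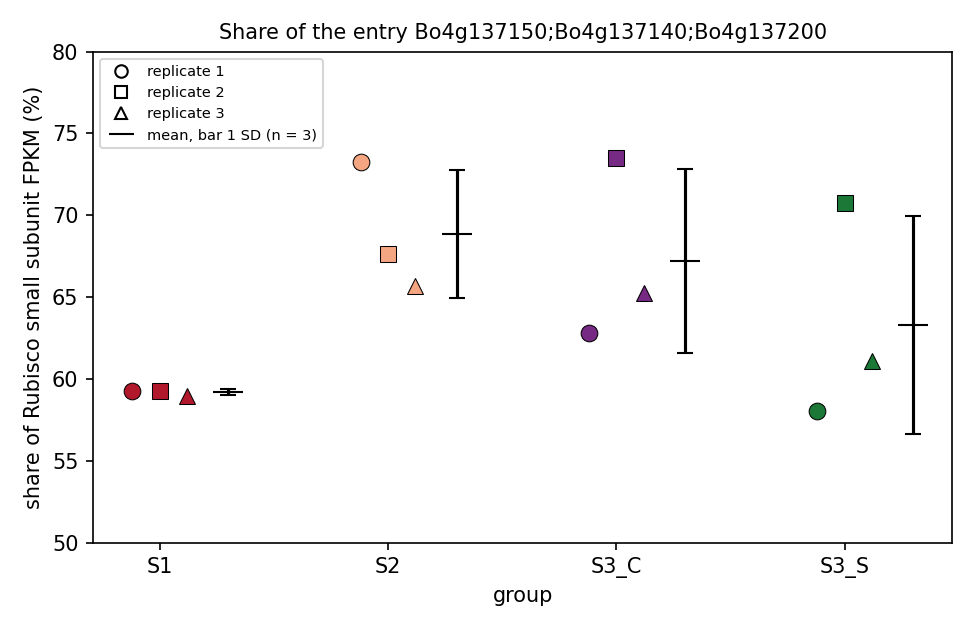
Percentage of the summed small subunit FPKM held by the merged entry Bo4g137150;Bo4g137140;Bo4g137200 in each library by group, with symbols for the replicate number and a bar for the mean and 1 SD (n = 3); the axis starts at 50%. The S1 libraries lie at 59.0 to 59.3%, below all S2 (65.7 to 73.2%) and S3_C (62.8 to 73.5%) libraries.

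Among the other genes of the cycle, 32 entries were matched by name, description or Arabidopsis identifier and 31 were tested, with 0 called in any of the 4 comparisons. In S2 against S1, 15 had positive and 16 negative differences, in the red center against S1 14 and 17, in the margin against S1 17 and 14, and in the margin against the center 14 and 17. Without S1 replicate 1, limma called 4 higher and 10 lower in S2, 6 higher and 10 lower in the red center, and 1 each way in the margin. Over all tested genes this setting called 4.69% higher and 10.9% lower in S2, 6.41% and 16.6% in the red center, and 0.363% and 1.03% in the margin. Many descriptions name an enzyme family that also has cytosolic forms in glycolysis, and a split made after the values were seen put 7 of the 31 in the chloroplast, 21 in families that the description does not place and 3 in related families.

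Some of the chloroplast entries had profiles near those of the members, and others did not. The chloroplastic aldolase Bo3g149690, which joins triose phosphates, measured 423, 32.4 and 66.9 FPKM in S1, 239.6, 621 and 736 in S2, 902, 505 and 118 in S3_C, and 266, 145 and 194 in S3_S (r = 0.977 with GAPB). PGK1, the phosphoglycerate kinase of the reduction step, had r = 0.942 with GAPB. CP12-2, a small protein that binds GAPDH and PRK in the dark, went otherwise, with 62.3, 74.8 and 59.5 FPKM in S1, 86.3, 83.2 and 41.1 in S2, 56.2, 72.7 and 84.5 in S3_C, and 71.1, 86.3 and 46.5 in S3_S (r = -0.42). The aldolase-superfamily entry Bo2g133780, assigned to Arabidopsis AT2G01140, had r = -0.68, and the scarce entry CP12-3 had r = -0.24. In S2 against S1 6 of these 7 chloroplast entries had positive differences. Without S1 replicate 1, 2 were called higher in S2, beside 4.69% of all tested genes. In the red center that setting called 3 higher and 1, Bo2g133780, lower, beside 6.41% of tested genes higher and 16.6% lower.

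Within the enzyme families some copies followed GAPB and others did not or ran against it. Of 8 tested aldolases, 6 had r of at least 0.8 with GAPB and 2 were below 0, with a range of -0.79 to 0.977. The most abundant, Bo7g119470, measured 863, 267 and 375 FPKM in S1, 465, 945 and 1192 in S2, 1253, 759.9 and 412 in S3_C, and 589, 449.6 and 669 in S3_S. Bo1g002260 measured 397, 39.5 and 37.5 in S1, 276, 352 and 498 in S2, 584, 379 and 209.6 in S3_C, and 338, 204 and 169 in S3_S. Their lowest values were in S1 replicate 2 for the first and S1 replicate 3 for the second, and 6 of the 10 members were also lowest in S1 replicate 2.

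Of 10 tested glyceraldehyde phosphate dehydrogenases, 2 had r of at least 0.8 with GAPB and 7 were below 0, from -0.83 to 0.920. Bo5g016460, the most abundant, measured 168, 60.5 and 90.7 FPKM in S1, 63.4, 161 and 300.3 in S2, 291, 144.5 and 102 in S3_C, and 182, 90.3 and 257.5 in S3_S (r = 0.848). Of the phosphoglycerate kinases, 2 of 6 were at r of at least 0.8, 1 at 0.444 and 3 below 0, from -0.78 to 0.942. Bo1g138960, the most abundant of them, measured 201, 45.1 and 58.2 FPKM in S1, 87.3, 189.7 and 225 in S2, 285, 133 and 118 in S3_C, and 194.5, 114 and 199 in S3_S. The descriptions do not place these copies in the chloroplast or the cytosol.

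**Figure D5:**
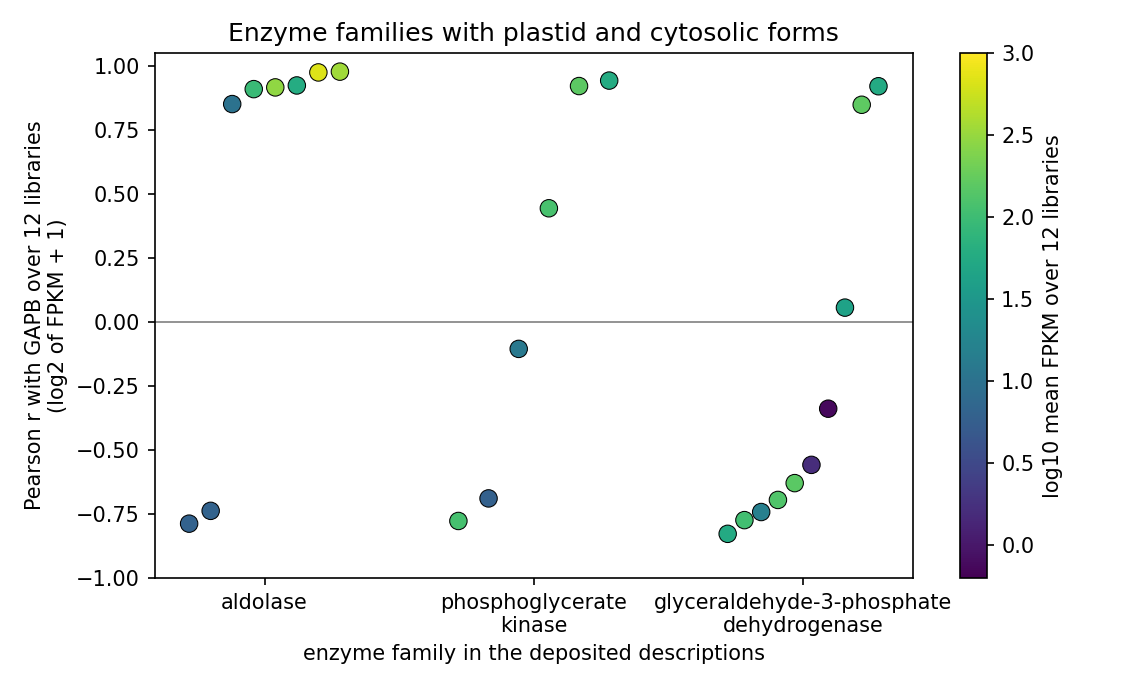
Pearson r with GAPB over 12 libraries (log2 of FPKM + 1) of each tested entry in 3 enzyme families, with the color giving log10 of the mean FPKM. Each family has entries above 0.9 and below 0, with 6 of 8 aldolases, 2 of 6 phosphoglycerate kinases and 2 of 10 dehydrogenases at r of at least 0.8.

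Genes around the cycle were counted in the same way, and limma called 0 of them in each comparison of 12 libraries. In photorespiration, which salvages the product of Rubisco's reaction with oxygen, 9 of 10 matched entries were tested, 5 with positive and 4 with negative differences in S2 against S1. AGT, the most abundant of them and an aminotransferase of the peroxisome, measured 359.9, 58.6 and 64.3 FPKM in S1, 200.2, 356 and 336 in S2, 317, 493 and 261 in S3_C, and 210.1, 156 and 165 in S3_S. Without S1 replicate 1, it was called higher in S2 (adjusted p = 0.00705) and in the red center (adjusted p = 0.00534), as was the glycolate oxidase homolog Bo5g130300 (0.0258 and 0.0172). In the same setting the glycine cleavage H protein Bo3g028190 (r = -0.88 with GAPB) was called lower in S2 (adjusted p = 0.0146) and in the red center (0.00896). The phosphoglycolate phosphatase PGLP2 was called lower too (0.0227 and 0.0124).

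In the thioredoxin system, which activates SBPASE and PRK in the light, both matched entries were tested. The catalytic chain of ferredoxin-thioredoxin reductase, Bo4g139550, measured 168, 63.9 and 80.7 FPKM in S1, 116, 188 and 265 in S2, 267, 205 and 125 in S3_C, and 162, 116 and 122 in S3_S, with r = 0.982 with GAPB. TRXF2, a thioredoxin that acts on enzymes of the cycle, had r = -0.66 and levels of 1.41 to 13.98 FPKM. The 1 entry matched for Rubisco assembly, Bo8g107110, is described as a Rubisco methyltransferase family protein, which does not name an assembly factor. It stayed between 6.44 and 15.5 FPKM.

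Carbonic anhydrases, which interconvert carbon dioxide and bicarbonate, had 18 matched and 12 tested entries, 9 of them with positive differences in S2 against S1. The chloroplastic Bo5g155090 varied widely, at 148, 4.48 and 24.6 FPKM in S1, 89.2, 308.5 and 329 in S2, 593, 41.6 and 3.66 in S3_C, and 12.0, 0.180 and 311 in S3_S. CA2 measured 144, 2.12 and 5.94 in S1, 44.6, 74.1 and 78.5 in S2, 99.1, 60.3 and 34.2 in S3_C, and 39.5, 5.82 and 60.6 in S3_S. Both were high in S1 replicate 1 and low in S1 replicates 2 and 3.

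Of the 6793 tested non-member genes with a name or description, 145 had r of at least 0.9 with GAPB over the 12 libraries. The 5 nearest were the plastid lipid-associated protein Bo6g024750 (r = 0.994), the serine hydroxymethyltransferase Bo1g003290 (r = 0.992), which interconverts glycine and serine, the chaperone DnaJ-domain protein Bo9g149910 (r = 0.989), Bo5g130300 (r = 0.987) and the cytochrome b6-f iron-sulfur subunit Bo9g006480 (r = 0.987). Bo1g003290 ranged from 5.61 FPKM in S1 replicate 2 to 335 in S3_C replicate 1. For the merged small subunit entry 32 genes reached 0.9, and the nearest were the aldolase Bo7g119470 (r = 0.962), GDCH, a glycine decarboxylase H protein (r = 0.961), PGK1 (r = 0.960), the PsbP-like protein PPL1 (r = 0.958) and the serine hydroxymethyltransferase Bo3g153100 (r = 0.949). GDCH was listed at 0 in S1 replicate 2 and reached 25.5 FPKM in S3_C replicate 1.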

How the data were processed

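The deposited table gives FPKM per gene entry and library, computed by the authors, per the file headers. Bowtie 0.12.2, HISAT2 2.0 and StringTie 1.3.0 are named, per the submitters' processing notes, but not their roles; genome build and filters: not given in the sources used here. Of 45714 entries 34969 carry StringTie identifiers, and 839 list more than 1 gene. Reads are not given, so absolute depth is unknown. Depth inferred roughly from the spacing of low values ranged from 0.664 to 1.0 of S1 replicate 1, but this estimate is weak. The most frequent bin held 100% of the values used in S1 replicate 1 and only 3.47 to 5.30% in the other libraries. Library FPKM sums were 426980 to 470320, and 19.7 to 23.3% of entries were listed at 0.

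The 27272 genes that reached 1 FPKM in 3 or more libraries entered a limma fit (version 3.58.1, R 4.3.3) to log2(FPKM + 1), with 4 group means, a trend in eBayes and two-sided tests. Benjamini-Hochberg adjustment ran over all tested genes, with calls at an adjusted p under 0.05. Fold changes on this scale understate those of low genes, and intervals are 95%. The script was tested on simulated data for S2 against S1, with 50 changed genes at each size of change. It recovered 8 at a log2 change of 1, 24 at 2, 43 at 3 and 46 at 4, with 11 false calls. A gene that was not called may therefore still differ. Alternatives were pseudocounts of 0.1 and 5, no filter, median-of-ratios scaling, 2-group fits, a replicate block and each library left out.

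Members and lists were chosen with earlier results of these data known. All members are named; from each list, counts over the whole list come with the most abundant entry and at most 4 others, and the 5 genes nearest to GAPB and to the merged entry are given. Description patterns of the lists were corrected, and the group of 7 entries and the added settings were chosen, after the values were seen. PCNA1, CDC2B, CDKB2, CYC1, XCP1, CP12-2, PGK1, Bo2g133780, PGLP2 and Bo3g028190 were named after their values were seen.

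Same-numbered S3_S and S3_C libraries deviated together over all tested genes (r = 0.268, 0.195 and 0.158 for numbers 1, 2 and 3). The numbers were taken to pair them, a tentative pairing that comes from the data and not from the labels. Unequal numbers had r of -0.24 to 0.0129. Deviations from a group mean sum to 0, so these values are not an independent contrast. S3_S with S1 had larger r for numbers 1 and 3 (0.330 and 0.379) but -0.25 for number 2, and was not taken as paired. None of the other comparisons had a positive r for all 3 numbers.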

Additional observations from a re-analysis of the deposited data

How the results depend on the processing

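With all 12 libraries kept, no alternative of scaling, pseudocount, filter, 2-group fit or block brought a member past the threshold or turned its direction. The count of called genes over the whole table, 2 in each comparison with S1 and 0 between margin and center, is small and moved with most settings. With a pseudocount of 5 it was 1 in each comparison with S1. With no filter it was 1 for S2, 4 for S3_C and 1 for S3_S against S1 and 3 between margin and center. A pseudocount of 0.1 gave 2 between margin and center, and fitting only the 2 groups gave 3. Leaving out a library in turn gave 1 to 4262 called genes in S2 against S1, 1 to 6287 in S3_C against S1, 1 to 381 in S3_S against S1 and 0 to 5 between margin and center; the high ends are without S1 replicate 1, and the 5 without S3_C replicate 1. Without S1 replicate 1 and S3_S replicate 3 the counts were 5170, 6852 and 3079 against S1.

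With a replicate block the count was 1 in each comparison with S1 and 0 between margin and center, whose pairing by number is tentative. In fits of only the 2 groups with the block, added later, the count was 0 in each comparison with S1. The block changed no call of a member. In the other comparisons the replicate numbers were not taken as pairs. Their correlations of deviations were -0.27, -0.27 and -0.18 for S2 and S1, -0.00849, -0.24 and 0.163 for S3_C and S1, and 0.330, -0.25 and 0.379 for S3_S and S1.

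Directions turned with a library left out for Bo6g059930 in each comparison (log2 fold changes of -0.55 to 0.62 in S2 against S1, -1.37 to 0.11 in S3_C against S1, -1.62 to 0.49 in S3_S against S1 and -0.99 to 1.11 between margin and center; -0.99 without S1 replicate 1 and S3_S replicate 3). They also turned for Bo4g144000 in S3_C against S1 (-0.27 to 1.27), S3_S against S1 (-0.27 to 1.08) and margin against center (-0.85 to 0.56), for the merged small subunit entry in S3_S against S1 (-0.0284 to 1.23) and margin against center (-1.15 to 0.19), for SBPASE in margin against center (-0.93 to 0.24) and for Bo3g138420 in S3_S against S1 (-0.44 to 0.12; -0.63 without S1 replicate 1 and S3_S replicate 3). GAPB and the phosphoribulokinases kept their direction in every comparison and setting run. The cause of these changes was not tested. Absolute depth is unknown, which leaves the counting error of low entries such as Bo3g138420 unmeasured.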

Other observations

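A pair of dehydrogenase copies with profiles opposite to GAPB differed widely within S1, and both were singled out after their values were seen. The glyceraldehyde phosphate dehydrogenase Bo5g148380 measured 46.7, 267 and 283 FPKM in S1 replicates 1, 2 and 3, 70.1, 44.8 and 42.5 in S2, 56.0, 25.3 and 75.0 in S3_C, and 85.8, 67.9 and 224 in S3_S. Bo1g152180, of the same family, measured 25.3, 121 and 153 in S1, 32.9, 25.8 and 24.1 in S2, 27.3, 27.7 and 42.4 in S3_C, and 44.0, 48.4 and 89.4 in S3_S. Both were highest in S1 replicates 2 and 3 and S3_S replicate 3, the libraries in which PCNA1 was highest. CYC1, another marker of dividing cells, was not highest in these libraries. GAPCP-2, singled out in the same way, a plastid dehydrogenase of glycolysis, measured 0.634, 5.47 and 7.85 FPKM in S1 and 0.257 to 1.85 in the other 9 libraries. No explanation was tested.

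ATBCA3, a beta carbonic anhydrase, had its highest level, 201 FPKM, in S3_C replicate 2 and was listed at 0 in S1 replicate 2; the other S3_C libraries measured 17.3 and 69.3. ADG1, a subunit of the starch enzyme ADP-glucose pyrophosphorylase, ranged from 9.84 to 33.4 FPKM, with its lowest level in S3_C replicate 2 and its highest in S3_S replicate 2.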
